A study of Mus musculus with 6 samples.

Results

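The genes described here encode the vacuolar proton pump (V-ATPase) and the integral proteins of the lysosomal membrane, with TFEB and TFE3, a pair of transcription factors that control lysosomal genes. They were taken as every gene whose own symbol begins with Atp6v or Atp6ap, plus 13 named genes: Lamp1, Lamp2, Cd63, Cd68, Scarb2, Mcoln1, Clcn7, Ostm1, Tmem192, Cln3, Ctns, Tfeb and Tfe3. This gave 37 of the 19933 genes that have a probeset of their own on the arrays, 24 of them V-ATPase genes and 13 the named ones, and each gene was read from its probeset with the highest mean signal. Atp6v0c, which encodes the main proteolipid of the pump's membrane ring, is not analysed here. RNA came from NCU10K, a mouse neural crest line that has been immortalized, 48 h after transfection with Nedd4 siRNA (3 arrays) or control siRNA (3 arrays), with 300 ng of total RNA per Affymetrix Mouse Gene array and 1 array per biological replicate. Both groups were the same line in the same serum-containing medium and received the same transfection reagent. The methods name a single Nedd4 siRNA and a low GC control siRNA, with no rescue on the arrays, so effects of losing NEDD4, a HECT ubiquitin ligase, and other effects of that siRNA cannot be told apart. All values are log2 expression values as deposited, a fold change is Nedd4 siRNA over control siRNA, and a gene passed the test at an adjusted p under 0.05 from limma, adjusted over all 28440 probesets.

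The V-ATPase pumps protons into lysosomes and other acidic compartments by rotary catalysis. Its cytosolic V1 sector (subunits A to H) hydrolyses ATP, and its membrane V0 sector (subunits a, c, d and e with related ring proteins) carries the protons. A central rotor that includes subunits D and F couples the sectors, and peripheral stators of subunits E and G hold them in place. Several subunits have isoform genes, some used broadly and others mainly in kidney, bone or epididymis. The lysosomal membrane also holds heavily glycosylated LAMP proteins and the channels and carriers that let ions and digestion products through. TFEB and TFE3 bind an E-box, called the CLEAR element, in the promoters of many of these genes.

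Nedd4 mRNA, the target, was at 10.45, 10.94 and 10.68 on the Nedd4 siRNA arrays, against 12.24, 12.35 and 12.34 on the control siRNA arrays. It was 3.07-fold lower (−1.62 on the log2 scale, SE 0.12, limma adjusted p = 3.16e-06). Array medians lay between 6.28 and 6.35. Of the 12 measured neural crest and Schwann lineage markers, 11 were in the brighter 50% of probesets, and 9 of the 12 changed (3 higher, 6 lower), where 18.7% of all genes and 33.4% of the genes in the brighter 50% changed. The log2 of their summed level ran from 13.63 to 13.76 with Nedd4 siRNA and from 13.98 to 14.04 with control siRNA. Sox10, a defining transcription factor of the lineage, averaged 10.64 with Nedd4 siRNA and 11.07 with control siRNA (adjusted p = 0.00864). Sox9, another transcription factor of the list, went the other way and averaged 7.72 with Nedd4 siRNA and 7.06 with control siRNA (adjusted p = 0.000337). Whether that shift in lineage genes has a part in the values below was not tested. In RNA from whole cultures, fewer cells of a kind and less RNA per cell cannot be told apart.

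The promoters are shown first because TFEB and TFE3 are among the genes described, and the letters of their E-box can be looked up in the promoters of the others. RefSeq promoters on GRCm38.p6, running from 250 bases before to 50 bases after each annotated start, were at hand for 30 of the 37 genes. There was none for Atp6v1b2, Atp6v1c1, Atp6v1g1, Atp6v1h, Atp6v0a2, Atp6v0d2 and Atp6ap1l. The motifs searched on both strands were CACGTG, the 7-letter TCACGTG and the 8-letter TCACGTGA, each of which contains the one before. CACGTG was present in 8 of the 30 genes (26.7%), against 8.09% of all 27025 genes in the table. All 8 also held TCACGTG (4.29% of all genes), and 6 of them held TCACGTGA (1.12% of all genes). The matches of Cln3 are at the second of its 2 annotated starts. Clcn7 also has 2 annotated starts, and the promoter printed below is the only 1 of the 2 with matches. A match is a description of the letters and not a shown binding site.

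The promoters of Lamp1, which rose, Clcn7, which fell, and Mcoln1, the lysosomal calcium channel gene, are given whole, 5′ to 3′ on the strand of the gene, with each CACGTG in capitals.
Lamp1, chr8:13158911-13159210, plus strand: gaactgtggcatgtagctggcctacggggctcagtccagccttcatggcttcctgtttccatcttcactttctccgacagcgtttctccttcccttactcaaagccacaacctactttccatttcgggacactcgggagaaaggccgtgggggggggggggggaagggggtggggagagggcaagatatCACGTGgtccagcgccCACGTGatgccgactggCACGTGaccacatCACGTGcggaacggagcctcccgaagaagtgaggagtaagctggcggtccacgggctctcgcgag
Clcn7, chr17:25133141-25133440, plus strand: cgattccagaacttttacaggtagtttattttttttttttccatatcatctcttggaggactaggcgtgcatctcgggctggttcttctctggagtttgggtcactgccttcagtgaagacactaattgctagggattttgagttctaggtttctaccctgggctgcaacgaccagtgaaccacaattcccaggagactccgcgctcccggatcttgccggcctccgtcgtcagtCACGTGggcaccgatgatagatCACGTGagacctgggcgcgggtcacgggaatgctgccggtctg
Mcoln1, chr8:3500269-3500568, plus strand: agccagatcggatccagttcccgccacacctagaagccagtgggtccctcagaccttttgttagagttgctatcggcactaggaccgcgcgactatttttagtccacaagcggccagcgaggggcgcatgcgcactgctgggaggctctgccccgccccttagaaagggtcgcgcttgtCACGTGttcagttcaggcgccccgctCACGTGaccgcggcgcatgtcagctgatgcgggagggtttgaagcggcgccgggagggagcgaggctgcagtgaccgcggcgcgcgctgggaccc

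For the other 5 genes the stretch that holds the matches is given with 27 bases on each side where the promoter reached that far, again with CACGTG in capitals, so that the letters around the shared core can be compared.
Atp6v1a, chr16:44139358-44139417, minus strand: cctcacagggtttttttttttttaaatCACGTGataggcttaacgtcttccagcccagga
Atp6v0b, chr4:117887315-117887392, minus strand: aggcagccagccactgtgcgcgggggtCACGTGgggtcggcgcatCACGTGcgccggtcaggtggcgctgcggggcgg
Atp6v0d1, chr8:105566035-105566094, minus strand: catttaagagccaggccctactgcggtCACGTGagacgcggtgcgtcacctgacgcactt
Atp6v0e, chr17:26676372-26676431, plus strand: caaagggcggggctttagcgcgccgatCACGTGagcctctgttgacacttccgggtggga
Cln3, chr7:126583325-126583412, minus strand: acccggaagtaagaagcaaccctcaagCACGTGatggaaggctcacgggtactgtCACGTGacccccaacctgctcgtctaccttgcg

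Lamp1 held 4 copies of CACGTG, all within 61 bases before the start, and Clcn7, Mcoln1, Atp6v0b and Cln3 held 2 each. Of the 8 genes, Lamp1 rose (0.36), Clcn7 fell (−0.33) and 6 did not pass the test, with log2 fold changes between −0.28 for Atp6v1a and 0.28 for Atp6v0d1. The median over the 8 genes was −0.03. All 8 lay in the brighter 50% of probesets, where 33.4% of genes passed, against 18.7% of all genes. Whether genes with the motif passed more or less often than others was not tested. Most promoters lack this motif, which 26.7% of the 30 members with a promoter and 8.09% of all genes held. Of the 11 genes that passed the test and had a promoter to search, 9 had no CACGTG in it. Among these 9 were Cd68 and Atp6v1f, the members with the largest changes, whose promoters follow with the annotated first base of the transcript as the only capital.
Cd68, chr11:69666121-69666420, minus strand: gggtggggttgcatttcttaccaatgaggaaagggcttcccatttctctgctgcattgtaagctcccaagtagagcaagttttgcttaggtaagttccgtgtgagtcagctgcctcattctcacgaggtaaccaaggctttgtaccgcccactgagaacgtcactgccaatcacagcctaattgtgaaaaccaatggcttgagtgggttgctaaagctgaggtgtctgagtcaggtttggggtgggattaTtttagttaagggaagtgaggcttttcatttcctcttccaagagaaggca
Atp6v1f, chr6:29467533-29467832, plus strand: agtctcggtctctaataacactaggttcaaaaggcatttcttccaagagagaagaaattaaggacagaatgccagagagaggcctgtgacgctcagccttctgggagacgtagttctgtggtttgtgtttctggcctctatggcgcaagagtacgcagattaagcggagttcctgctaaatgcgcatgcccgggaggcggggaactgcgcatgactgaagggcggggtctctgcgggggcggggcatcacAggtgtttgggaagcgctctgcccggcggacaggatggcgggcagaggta

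**Figure D1:**
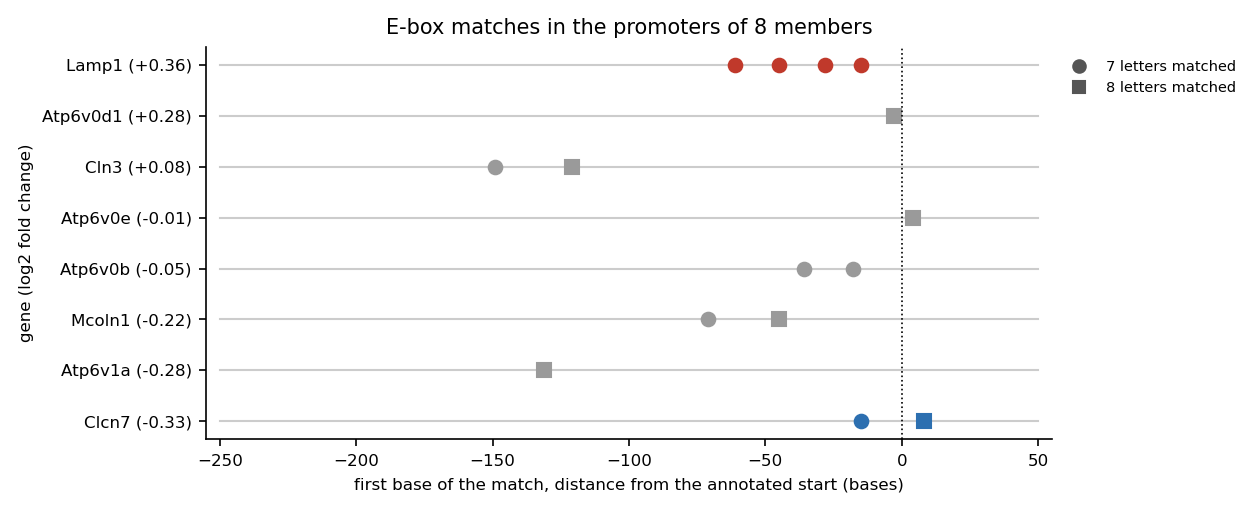
Position of each CACGTG match (first base, x axis, bases from the annotated start) in the promoters of the 8 genes that hold one, ordered by log2 fold change. Red marks Lamp1, which rose, blue Clcn7, which fell, and grey genes that did not pass the test; the shape gives the longer of the 7-letter and 8-letter forms matched, and the 4 matches of Lamp1 lie from 61 to 15 bases before its start.

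Across the 37 genes, 6 rose, 7 fell and 24 did not pass the test. The 13 that passed are 35.1% of the members. Over all 19933 genes 18.7% passed, 9.62% higher and 9.13% lower. These genes are bright, however. The 13 genes were all among the 30 members in the brighter 50% of probesets (43.3%), and in that range 33.4% of 10322 genes passed, 17.4% higher and 16.0% lower. Read against the brighter 50%, the count of members that passed lies closer to the background. The median log2 fold change was 0.02 over the members, −0.02 over all genes and 0.03 over the brighter 50%. The median of its size was 0.22 over the members and 0.11 over all genes. Within the brighter 50% it was 0.25 over the 30 members there and 0.21 over all genes there. For 22 of the 37 members the groups did not overlap, where 31.7% of all genes had groups that did not overlap. Within the brighter 50% this held for 21 of the 30 members and for 50.2% of all genes there.

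**Figure D2:**
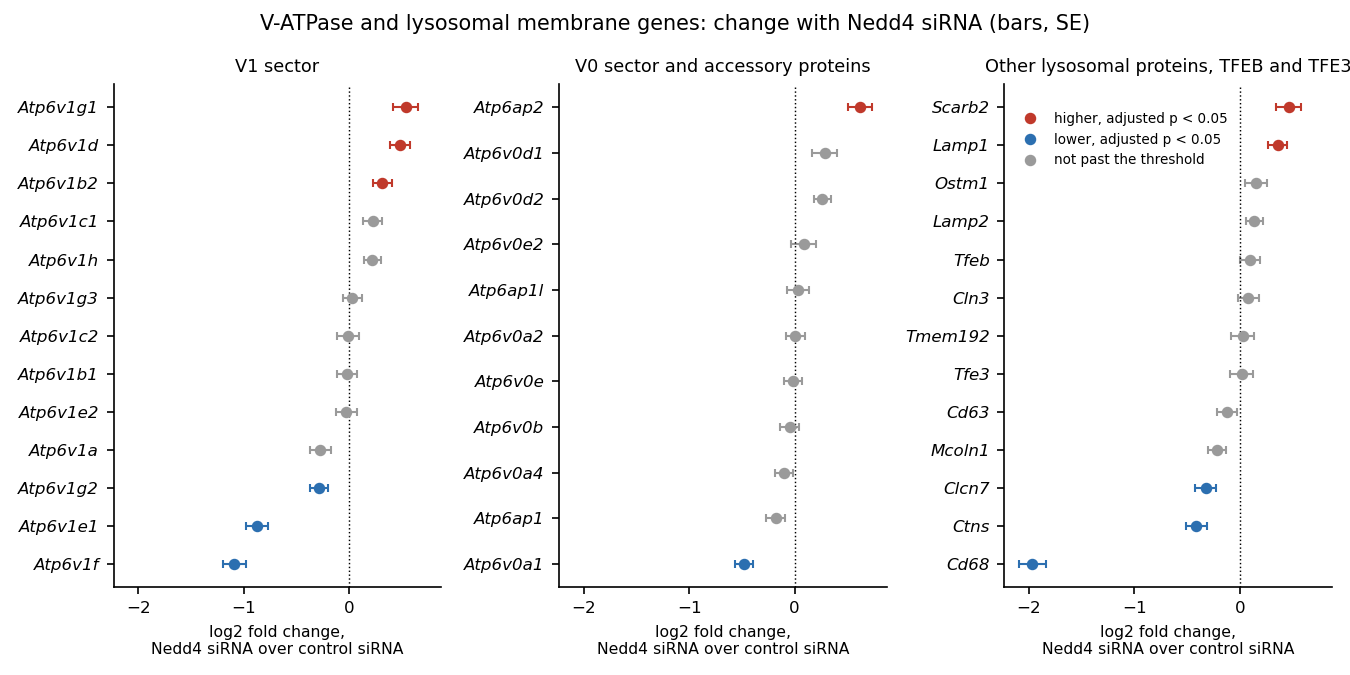
Log2 fold change with Nedd4 siRNA for all 37 genes (points, limma estimate from 3 arrays per group; bars, SE), in 3 panels by role. Red and blue mark an adjusted p under 0.05; the values run from −1.97 for Cd68 to 0.62 for Atp6ap2, and each panel holds both rises and falls.

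Within the V1 sector, 3 of 13 genes rose and 3 fell, with the falls of Atp6v1f and Atp6v1e1 larger than any of the rises and that of Atp6v1g2 smaller. The share of the 13 that passed was 46.2%, against 18.7% of all genes. Those that passed all lay in the brighter 50% of probesets, where 33.4% of genes passed. Atp6v1b1, Atp6v1c2, Atp6v1e2 and Atp6v1g3 lay outside it, so the V1 share is not of that range alone. Atp6v1f, which encodes subunit F of the rotor, was 2.13-fold lower. Its values were 9.58, 9.97 and 9.60 with Nedd4 siRNA, against 10.82, 10.86 and 10.74 with control siRNA, a difference of −1.09 (SE 0.11, limma adjusted p = 3.55e-05). The highest Nedd4 siRNA array was thus 0.77 below the lowest control array. A second probeset annotated to Atp6v1f gave nearly the same difference, −1.10 (adjusted p = 2.02e-05). Since both carry the same transcript accessions, they may share sequence and are not independent measurements. Atp6v1e1, the broadly used isoform gene of stator subunit E, stood at 8.75, 9.0 and 8.76 with Nedd4 siRNA, against 9.57, 9.77 and 9.80 with control siRNA. This was a 1.84-fold fall (−0.88, SE 0.10, adjusted p = 9.54e-05), again with no overlap between the groups.

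Genes for the other rotor and stator subunits went both ways. Atp6v1d encodes subunit D, which sits with F in the rotor. It read 11.85, 11.73 and 11.72 with Nedd4 siRNA, against 11.15, 11.27 and 11.43 with control siRNA, a rise of 0.48 (SE 0.097, adjusted p = 0.00393). Atp6v1g1 encodes the G subunit isoform that pairs with E in the stators of most cells. Its values were 10.76, 10.64 and 10.64 with Nedd4 siRNA, against 10.27, 10.32 and 9.85 with control siRNA. The rise was 0.53 (SE 0.12, adjusted p = 0.00809), and control replicate 3 lay well below the other control arrays. The second Atp6v1g1 probeset, which carries the same accessions, gave 0.58 (adjusted p = 0.0033). Atp6v1g2, the neuronal G isoform gene, was at 7.09, 6.91 and 7.02 with Nedd4 siRNA, against 7.34, 7.28 and 7.26 with control siRNA (−0.29, SE 0.088, adjusted p = 0.0429). It passed by the narrowest margin of the 13.

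The catalytic core of V1 showed smaller differences. Atp6v1b2, the broadly used isoform gene of subunit B, rose by 0.31 (SE 0.09, adjusted p = 0.0312), with values of 11.43, 11.33 and 11.36 with Nedd4 siRNA, against 11.11, 11.13 and 10.94 with control siRNA. Atp6v1a, the catalytic subunit gene, did not pass (−0.28, adjusted p = 0.0875). Its values were 10.54, 10.59 and 10.47 with Nedd4 siRNA, against 10.98, 10.80 and 10.65 with control siRNA, which do not overlap but come within 0.06 of each other. Atp6v1c1 (0.22, adjusted p = 0.133) and Atp6v1h (0.22, adjusted p = 0.113), whose proteins sit at the interface with V0 and regulate assembly, did not pass either. The isoform genes known mainly from kidney, epididymis or testis, Atp6v1b1, Atp6v1c2, Atp6v1e2 and Atp6v1g3, had means between 5.39 and 5.76 in both groups and log2 fold changes within 0.03 of 0. All of these lay in the dimmer 50% of probesets.

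**Figure D3:**
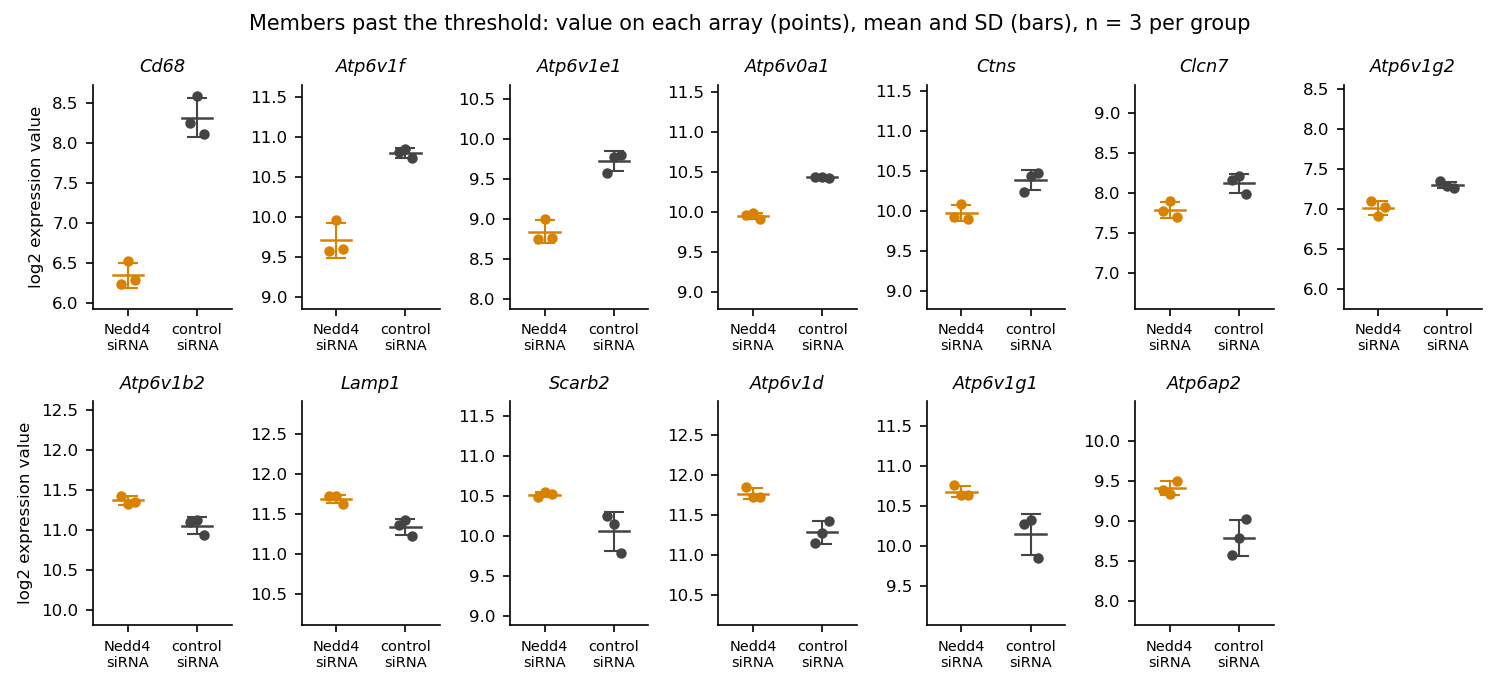
Log2 expression value on each array (points) with the mean and SD (bars) for the 13 members that passed the test, Nedd4 siRNA left of control siRNA, 3 arrays per group, with every panel spanning the same log2 range. Cd68 shows the widest gap between the groups (1.59) and Clcn7 the narrowest (0.09).

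Of the 11 genes of the V0 sector and the accessory proteins, Atp6ap2 rose, Atp6v0a1 fell and 9 did not pass. Thus 18.2% passed, against 18.7% of all genes and 33.4% of genes in the brighter 50% of probesets. All of the 11 but Atp6v0a4, Atp6v0d2 and Atp6ap1l lay in that brighter 50%. Atp6ap2 encodes the accessory protein also known as the (pro)renin receptor, which is needed for V-ATPase assembly. Its values were 9.39, 9.33 and 9.50 with Nedd4 siRNA, against 8.57, 8.78 and 9.02 with control siRNA. This was the largest rise among the members (0.62, SE 0.11, adjusted p = 0.00236), although the control arrays themselves spread over 0.45. Atp6v0a1 encodes an isoform of subunit a, which steers the pump to particular membranes. It had 9.96, 9.99 and 9.92 with Nedd4 siRNA, against 10.44, 10.44 and 10.43 with control siRNA (−0.48, SE 0.082, adjusted p = 0.00138), so that the arrays of each group lay close together and far from the other group.

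The other V0 genes stayed nearer to 0. Atp6v0a2, a Golgi and endosome isoform gene of subunit a, had a difference of 0.01 (adjusted p = 0.983). A second, dimmer probeset of Atp6v0a2 gave 0.15 (adjusted p = 0.516). Tcirg1, which encodes the a3 isoform of lysosomes and osteoclasts under a symbol outside the rule, is counted with the lists below. The proteolipid gene Atp6v0b (−0.05), the small subunit genes Atp6v0e (−0.01) and Atp6v0e2 (0.09) and the accessory gene Atp6ap1 (−0.18) did not pass. Atp6v0d1, the broadly used isoform gene of subunit d, had 11.37, 11.15 and 11.19 with Nedd4 siRNA, against 11.06, 11.10 and 10.70 with control siRNA (0.28, adjusted p = 0.137). Atp6v0d2, its osteoclast and kidney isoform, was just outside the threshold (0.26, adjusted p = 0.0518), with values of 5.34, 5.39 and 5.28 with Nedd4 siRNA, against 5.05, 5.11 and 5.06 with control siRNA. Its mean lay in the dimmest 25% of probesets. Atp6v0a4 (−0.10) and Atp6ap1l (0.03) were also in the dimmer 50% and did not pass.

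Among the 13 other lysosomal genes, 2 rose and 3 fell, and Cd68 had the largest change of any member. All 13 lay in the brighter 50% of probesets, and 38.5% of them passed, against 33.4% of genes in that range. Cd68 encodes a LAMP-family glycoprotein best known from macrophages. It was at 6.23, 6.52 and 6.28 with Nedd4 siRNA, against 8.24, 8.58 and 8.11 with control siRNA, 3.91-fold lower (−1.97, SE 0.13, adjusted p = 1.47e-06). Of 15 measured markers of macrophages and osteoclasts, 0 passed the test from limma, 0 had an unadjusted p under 0.05, and 9 lay in the dimmest 25% of probesets. Only 1 of the 15 lay in the brighter 50%, where 33.4% of genes passed, against 18.7% of all genes. A count of 0 in so dim a list therefore says little. Whether such cells have a part in the fall of Cd68 was not tested. The defining macrophage genes Csf1r (5.35 with Nedd4 siRNA, 5.45 with control siRNA), Adgre1 (5.05 and 5.14) and Ptprc (5.45 and 5.52) all lay in the dimmest 25% of probesets or next to it. The log2 of the list's summed level ran from 9.35 to 9.43 with Nedd4 siRNA and from 9.40 to 9.54 with control siRNA. The 10 measured markers of proton-secreting epithelial cells likewise had 0 past the test and 0 at an unadjusted p under 0.05. Of these 10, 4 lay in the dimmest 25% and only 1 in the brighter 50%. The count for this list therefore says little about such cells either.

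Among Lamp1, Lamp2, Scarb2, Cd63 and Tmem192, only Lamp1 and Scarb2 passed the test, and these rose. Lamp1, which with Lamp2 encodes the major glycoproteins of the lysosomal membrane, had 11.72, 11.72 and 11.63 with Nedd4 siRNA, against 11.36, 11.42 and 11.22 with control siRNA (0.36, SE 0.09, adjusted p = 0.0155). Lamp2, which also serves chaperone-mediated autophagy, had 11.91, 11.85 and 11.94 with Nedd4 siRNA, against 11.73, 11.74 and 11.82 with control siRNA (0.14, adjusted p = 0.376). It did not pass, although the groups did not overlap. Scarb2 encodes LIMP-2, which carries glucocerebrosidase to lysosomes. It stood at 10.48, 10.54 and 10.52 with Nedd4 siRNA, against 10.24, 10.14 and 9.78 with control siRNA (0.46, SE 0.11, adjusted p = 0.0147). The Nedd4 siRNA arrays were close together, and control replicate 3 again lay lowest. The tetraspanin gene Cd63 (−0.12, adjusted p = 0.524) and Tmem192 (0.03, adjusted p = 0.936) did not pass.

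Among the members that encode channels and carriers, Ctns and Clcn7 fell. Ctns encodes cystinosin, which exports cystine from lysosomes. Its values were 9.93, 10.09 and 9.90 with Nedd4 siRNA, against 10.24, 10.44 and 10.48 with control siRNA (−0.41, SE 0.098, adjusted p = 0.0108). Clcn7 encodes the lysosomal chloride-proton exchanger and had 7.78, 7.90 and 7.70 with Nedd4 siRNA, against 8.16, 8.21 and 7.99 with control siRNA (−0.33, SE 0.096, adjusted p = 0.0348). Ostm1, whose product is the obligate partner of CLC-7, did not pass and had the opposite sign (0.15, adjusted p = 0.425). Mcoln1, which encodes the calcium release channel TRPML1, had 9.87, 9.87 and 9.85 with Nedd4 siRNA, against 10.14, 10.08 and 10.02 with control siRNA (−0.22, adjusted p = 0.113). Cln3, mutated in juvenile Batten disease, was at 0.08 (adjusted p = 0.718). The transcription factor genes themselves showed no difference beyond the spread of the arrays. Tfeb had 7.72, 7.49 and 7.51 with Nedd4 siRNA, against 7.47, 7.55 and 7.42 with control siRNA (0.09, adjusted p = 0.648). Tfe3 had 9.52, 9.65 and 9.34 with Nedd4 siRNA, against 9.42, 9.67 and 9.37 with control siRNA (0.02, adjusted p = 0.961). These are mRNA levels and say nothing of where the TFEB and TFE3 proteins are in the cell, which is how they are mainly controlled.

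**Figure D4:**
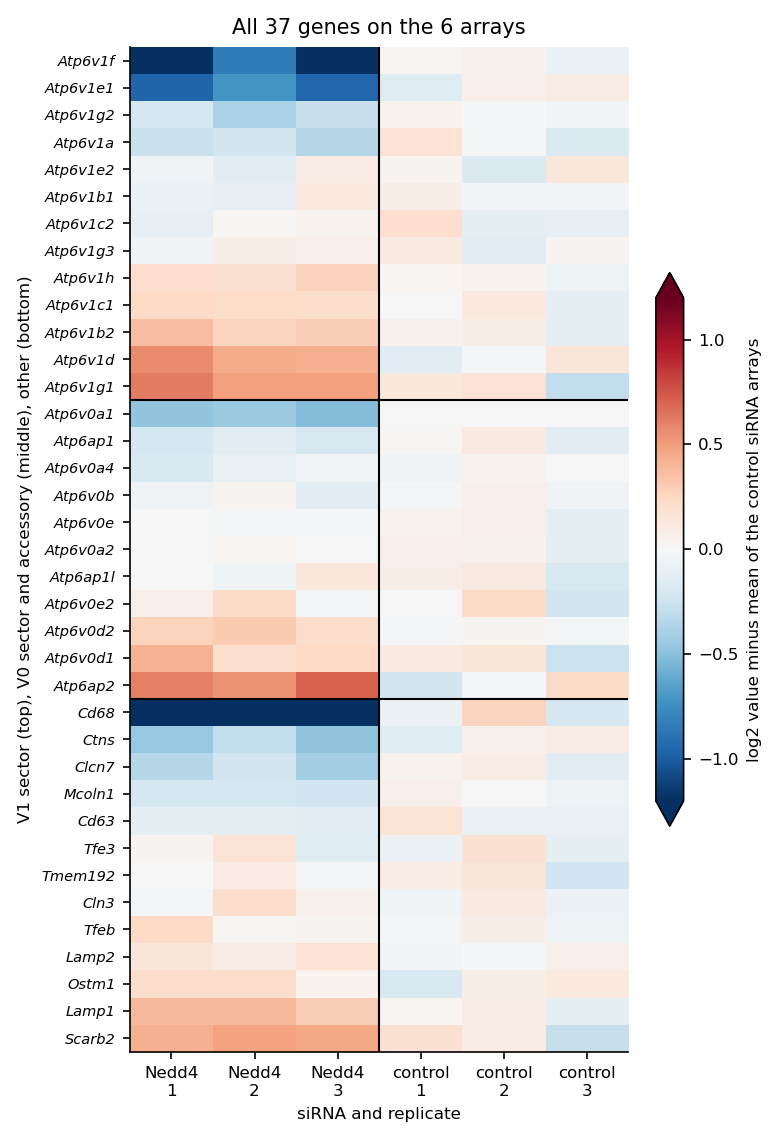
Value of each of the 37 genes (rows, by role and then by fold change) on each of the 6 arrays (columns, Nedd4 siRNA left of control siRNA), as the log2 value minus the mean of the control siRNA arrays; colours are capped at 1.2 in size. Blue and red rows stand side by side within each block, and control replicate 3 is bluer than the other control arrays in many rows.

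The control arrays were less alike than the Nedd4 siRNA arrays for these genes. The median SD of a member was 0.12 over the control arrays and 0.074 over the Nedd4 siRNA arrays. Control replicate 3 was the lowest of the control arrays in 25 of the 37 members, and in 24 of the 30 members in the brighter 50%, while over all genes of that 50% it was the lowest in 39.3%. Without it, Atp6v1b2, Atp6v1g2 and Lamp1 no longer passed the test and Atp6v1a did, which gave 10 of the 13 calls unchanged. Without Nedd4 siRNA replicate 1, 8 of the 13 calls were kept, and Atp6v1b2, Atp6v1g2, Lamp1, Clcn7 and Ctns were lost. By the methods' t-test, the ANOVA that the study names, Cd68 (adjusted p = 0.0185), Atp6v1f (0.0288), Atp6v1e1 (0.0303) and Atp6v0a1 (0.00953) passed. The other 9 did not, at adjusted p between 0.0621 for Lamp1 and 0.167 for Scarb2, and Atp6v0d2 (0.0368) and Mcoln1 (0.0484) did. By that test 9.05% of all genes passed, and 16.1% of those in the brighter 50% of probesets, where all of these members but Atp6v0d2 lay. A two-sided exact permutation test of 3 arrays against 3 cannot go below p = 0.1, which all 13 reached. Cd68, Atp6v1f, Atp6v1e1 and Atp6v0a1 kept their call under each of the 17 alternatives run.

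The genes around the pump also went both ways. Of 16 measured V-ATPase genes outside the symbol rule (Tcirg1, assembly factors and regulators), 2 rose, 2 fell and 12 did not pass. Tmem9b, a paralogue of the V-ATPase regulator gene Tmem9, fell (−0.66, adjusted p = 0.000344), as did Tbc1d24 (−0.68, adjusted p = 0.000569), which has a TLDc domain found in V-ATPase interactors. Meak7 (0.51, adjusted p = 0.00203) and Tldc2 (0.47, adjusted p = 0.0329), which share that domain, rose. The 47 other lysosomal membrane genes had 5 higher, 9 lower and 33 not past the test. Cd82, a tetraspanin (−1.19, adjusted p = 9.46e-06), the amino acid carrier gene Slc36a1 (−0.88, adjusted p = 0.000101) and Sidt2, a nucleic acid transporter gene (−0.66, adjusted p = 0.00036), fell. Slc17a5, which encodes the sialic acid exporter sialin, rose (0.66, adjusted p = 0.00025).

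Among 34 genes of the MiT/TFE factors and of mTORC1 control at the lysosome, 7 rose, 3 fell and 24 did not pass. Ppp3ca encodes a catalytic subunit of calcineurin, the phosphatase that acts on TFEB, and rose (0.90, adjusted p = 2.37e-05). Fnip2, a folliculin partner (0.59, adjusted p = 0.000669), and Rheb, the GTPase that activates mTORC1 (0.48, adjusted p = 0.0024), rose too. Mtor itself fell (−0.48, adjusted p = 0.00291). Of 52 soluble lysosomal enzymes and cofactors, 12 rose, 6 fell and 34 did not pass. The glycolipid-degrading genes Gm2a (1.62, adjusted p = 1.59e-06) and Galc (1.58, adjusted p = 1.85e-06) rose, and the acid ceramidase gene Asah1 (−1.08, adjusted p = 1.55e-05) and Ctsk, which encodes cathepsin K (−0.98, adjusted p = 1.83e-05), fell. Of 38 genes that sort enzymes and membrane proteins to lysosomes, 4 rose, 7 fell and 27 did not pass. Nagpa, the uncovering enzyme of the mannose 6-phosphate tag, fell (−1.12, adjusted p = 6.61e-06), and so did Borcs7 (−0.73, adjusted p = 0.000542), a subunit of the complex that moves lysosomes outwards. Rilp, an effector of RAB7 (0.47, adjusted p = 0.00411), and Bloc1s1, a subunit shared by BLOC-1 and that complex (0.59, adjusted p = 0.00436) rose. The share that passed in these 5 lists was at most 34.6%, among the enzymes, where 35.1% of the members passed. Most of their genes, between 41 of 47 membrane genes and 36 of 38 sorting genes, lay in the brighter 50% of probesets, where 33.4% of all genes passed.

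**Figure D5:**
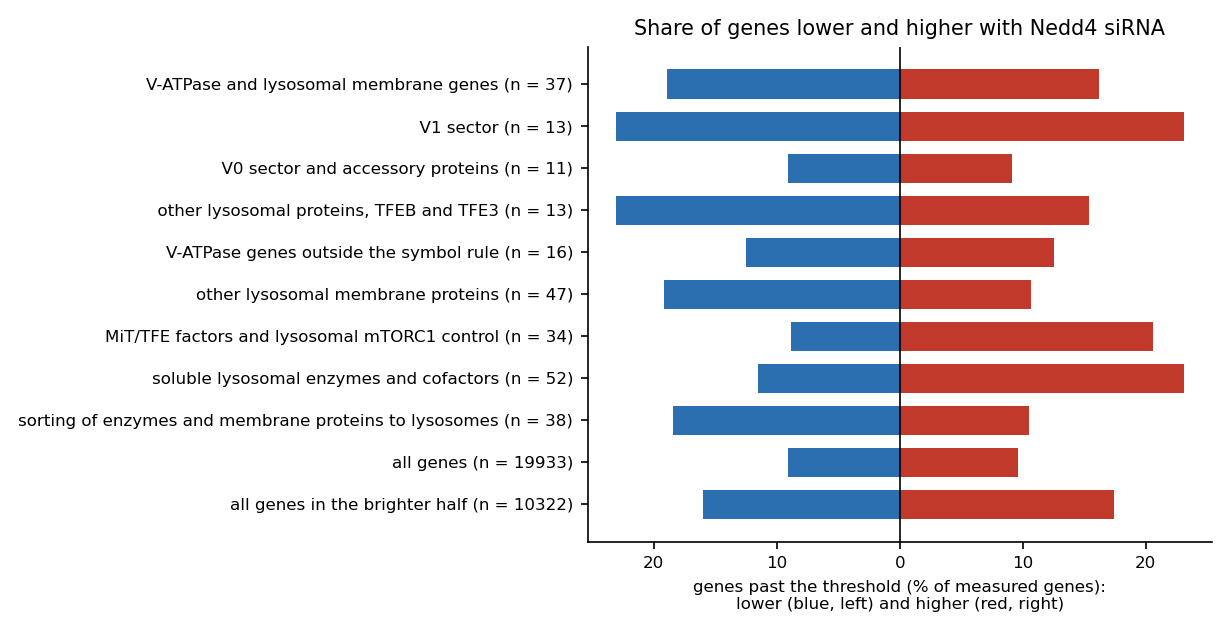
Share of measured genes lower (blue, left) and higher (red, right) at an adjusted p under 0.05 with Nedd4 siRNA, for the 37 members, their 3 groups by role, the 5 lists of related genes and all genes. Each of these sets holds genes in both directions. The members had 6 higher and 7 lower of 37, all of these among the 30 members in the brighter 50%. Among all genes in that range 17.4% were higher and 16.0% lower.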

How the data were processed

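RNA of 6 NCU10K cultures, 3 per siRNA, was measured on 1 array each. Per the labels and methods, the authors used Partek Genomics Suite 6.5 to correct background by RMA, to correct for probe GC content and to average probes, and deposited log2 values rounded to 2 decimals for 28440 probesets. The deposited values were used with no further normalization. Gene names came from the platform annotation: 21780 probesets had 1 symbol, 1618 had several and 5042 had none, and only those with 1 symbol were named. No fold change or p-value of the authors was used.

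Nedd4 siRNA was compared with control siRNA in limma 3.58.1 (R 4.3.3; lmFit and eBayes, no covariate), with Benjamini-Hochberg adjustment over all probesets at 0.05. The median residual SD was 0.117. The fit was tested on simulated data. Every member, Nedd4, and up to 4 genes with the smallest p among those past the threshold in each related list were named; Csf1r, Adgre1, Ptprc, Sox10 and Sox9 were named as defining markers. The members and all 8 gene lists were chosen with earlier results of these data known. Levels of different probesets were compared only to choose the probeset of a gene and to rank probesets by brightness. They were summed for the lineage and macrophage lists, where the brightest probesets weigh most. Promoters were searched in Python 3.11.15 with pandas 2.3.3. The 17 alternatives covered the methods' t-test, variance models, array weights, normalization, filters on dim probesets, probeset choice, a replicate block, a stricter threshold and leaving out each array. The methods place the transfection in a multiwell plate and the design text in larger dishes, which was not reconciled.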

Additional observations from a re-analysis of the deposited data

How the results depend on the processing

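Of the 13 genes that passed the test, Cd68, Atp6v1f, Atp6v1e1 and Atp6v0a1 passed under all 17 alternatives, and the 13 kept their direction under each. By the methods' t-test 1 member rose and 5 fell, with 2 V1 genes, 2 other lysosomal genes and 30 genes of the 5 related lists past the threshold, against 6, 7, 6, 5 and 57 with limma. At an adjusted p under 0.01, 3 rose and 4 fell, with 1 other lysosomal gene and 37 list genes. With array weights 4 V0 and accessory genes passed in place of 2, and 70 list genes in place of 57. For array weights, the stricter threshold and the arrays left out below, the share of all genes that passed is not given here. Leaving out 1 array at a time gave 4 to 6 higher and 4 to 7 lower members, 4 to 5 V1 genes, 2 V0 and accessory genes, 2 to 5 other lysosomal genes, 40 to 54 list genes and −1.75 to −1.50 for Nedd4. The lowest counts of falls and of other lysosomal genes came without Nedd4 siRNA replicate 1. Atp6v1g2 was lost without any 1 of the 6 arrays, and Clcn7 without any but control replicate 3 and Nedd4 siRNA replicate 2. The cause of these changes was not tested.

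Under array weights the sign turned for Atp6v1g3 (−0.0072). Under quantile normalization the sign turned for Atp6v1b1 (0.005), Atp6v1c2 (0.021), Atp6v1e2 (0.0081), Atp6v0a2 (−0.0103), Tfe3 (−0.0067). Under median centring the sign turned for Atp6v1b1 (0.0033), Atp6v1c2 (0.01), Atp6v0e (0.01). With 1 array left out it turned within these ranges: Atp6v1b1 −0.087 to 0.018, Atp6v1c2 −0.067 to 0.088, Atp6v1e2 −0.11 to 0.042, Atp6v0a2 −0.052 to 0.038, Tmem192 −0.09 to 0.10, Tfe3 −0.057 to 0.11, Atp6ap1l −0.065 to 0.085, Atp6v0e −0.067 to 0.018, Atp6v1g3 −0.04 to 0.085, Atp6v0e2 −0.025 to 0.20. None of these genes passed the test. The filters on dim probesets lost no call, and 34 and 30 members were measured after them. The replicate numbers did not pair the arrays consistently: deviations of same-numbered arrays from their group means correlated at −0.012, 0.472 and −0.013 for numbers 1, 2 and 3. With different numbers, the values ran from −0.43 (Nedd4 siRNA replicate 3, control replicate 2) to 0.42 (Nedd4 siRNA replicate 3, control replicate 1). With the replicate block the 13 calls were the same, 0 were lost and 0 gained, and the list genes past the threshold were 64. The number of arrays and the brightness of the probesets limit the precision, and 7 members lay in the dimmer 50%.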
